A study of Rattus norvegicus with 9 samples.

Results

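Glutathione S-transferases (GSTs) attach glutathione to reactive, electron-poor molecules, and 4-nitroquinoline 1-oxide (4NQO), the carcinogen used in this study, is itself a substrate of these enzymes. The 7 genes described here are Gsta1, Gsta3 and Gsta4 of the alpha class, Gstm1, Gstm2 and Gstm4 of the mu class, and Mgst2, a membrane-bound enzyme of the separate MAPEG family. They were taken by symbol: every probe set annotated to 1 gene only, that gene being on the list, was used whatever its values. Each gene had 1 such probe set, so the members were 7 of 31042 probe sets and 7 of 14217 genes with a probe set of their own.

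RNA from rat tongue was measured on 9 Affymetrix Rat Genome arrays, 3 in each of 3 groups. All rats were male Sprague-Dawley. The 4NQO+IL-1Ra rats drank water with 0.002% 4NQO and were then given weekly injections under the tongue mucosa of IL-1Ra, the natural antagonist of the interleukin-1 receptor. The 4NQO rats drank the same solution and were injected with saline. The normal rats had distilled water only, and the methods name no injections for them. By the methods, a difference from normal tongue thus cannot separate 4NQO from the repeated injections. Per the study's methods, the injections ran from week 14 to week 22 and the rats were killed when week 22 ended. The labels instead describe killing of 4NQO-fed rats with visible lesions over those weeks and name no injections in that protocol, so the sources differ on the time. The tongues were picked at random within groups, no source used here gives the lesion stage of each, and p-values measure the spread between these 9 tongues. The arrays are called 1 to 3 within a group, which is only a name.

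As background, most GST genes are inducible. The transcription factor NRF2 (Nfe2l2), held in check by Keap1, pairs with small Maf proteins at the antioxidant response element in front of many of them, and the same factor drives the genes that make glutathione. In stratified epithelium this system is part of the defence against electrophiles and oxidised lipids. Conjugates leave the cell through ABCC transporters and are trimmed to mercapturates.

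Promoter sequence from RefSeq (build GRCr8, 250 bases before to 50 after each annotated start) was matched by symbol for 6 of the 7 genes, with 7 promoters in all. Mgst2 was not matched. The core of the antioxidant response element, TGACNNNGC on either strand, was found in 2 of the 7 promoters, and the share over all 33469 rat promoters of the same length was 12.1%. The AP-1 motif TGANTCA, the same letters on both strands, was found in 0 of the 7, against 7.33% of all promoters. The 2 matches are shown because they sit in near-identical stretches of a neighbouring pair of alpha class genes. Capitals mark the core, Gsta1 is on the minus strand at chr9:31216483-31216512 and Gsta3 on the plus strand at chr9:31154962-31154991.
Gsta1: aactcaggcaTGACTTTGCatttttcttct
Gsta3: aactcaggcaTGACTTCGCattttttccta
Of these 30 bases 24 were identical, and within the core the pair differed by T17C, counted from 1 at the 5′ end with Gsta1 first. The core lay at bases 31 to 39 after the annotated start of Gsta1 and 17 to 9 before that of Gsta3. A local alignment of the whole promoters paired 243 bases of Gsta1 and Gsta3, of which 197 (81.1%) were identical. Among the 20 other promoter pairs no local alignment ran longer than 61 bases.

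The 250 bases upstream of Gsta4 (plus strand, chr8:87947015-87947264) and of Gstm1 (minus strand, chr2:198343384-198343633) are shown because these genes, with Mgst2, had no overlap between 4NQO and normal tongues. Neither motif was in their windows, so no letter is in capitals.
Gsta4: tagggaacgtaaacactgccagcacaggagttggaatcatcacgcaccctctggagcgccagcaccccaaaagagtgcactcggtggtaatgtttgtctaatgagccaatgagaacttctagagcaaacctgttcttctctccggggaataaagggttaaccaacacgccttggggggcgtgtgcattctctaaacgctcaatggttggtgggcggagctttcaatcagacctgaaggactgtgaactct
Gstm1: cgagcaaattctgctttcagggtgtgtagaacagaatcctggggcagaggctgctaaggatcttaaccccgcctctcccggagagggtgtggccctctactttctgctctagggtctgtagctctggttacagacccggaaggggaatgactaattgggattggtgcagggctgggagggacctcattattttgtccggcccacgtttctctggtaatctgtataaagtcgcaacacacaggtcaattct
A match is a run of letters and was not measured as a bound site, and a window without one says nothing of sites outside it.

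In tongues of rats given 4NQO, Mgst2 and Gsta4 were higher than in normal tongues, by 2.71-fold and 2.15-fold. Both were also called higher in 4NQO+IL-1Ra than in normal tongues, by 2.31-fold and 2.05-fold, but these calls lay close to the threshold and were lost after quantile normalization, after cyclic loess and in 7 of 9 omissions of an array. Gstm1 had the largest fitted difference of the 7 in both comparisons with normal tongue, but its 4NQO arrays were far apart and it did not pass the test on all 9 arrays and all probe sets. No member differed between 4NQO+IL-1Ra and 4NQO tongues by the test. Values below are log2 intensities (1 unit is a doubling), means are ± SD over 3 arrays, and tests are limma's moderated test, two-sided, with p-values adjusted by Benjamini-Hochberg over 31042 probe sets at a threshold of 0.05.

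**Figure D1:**
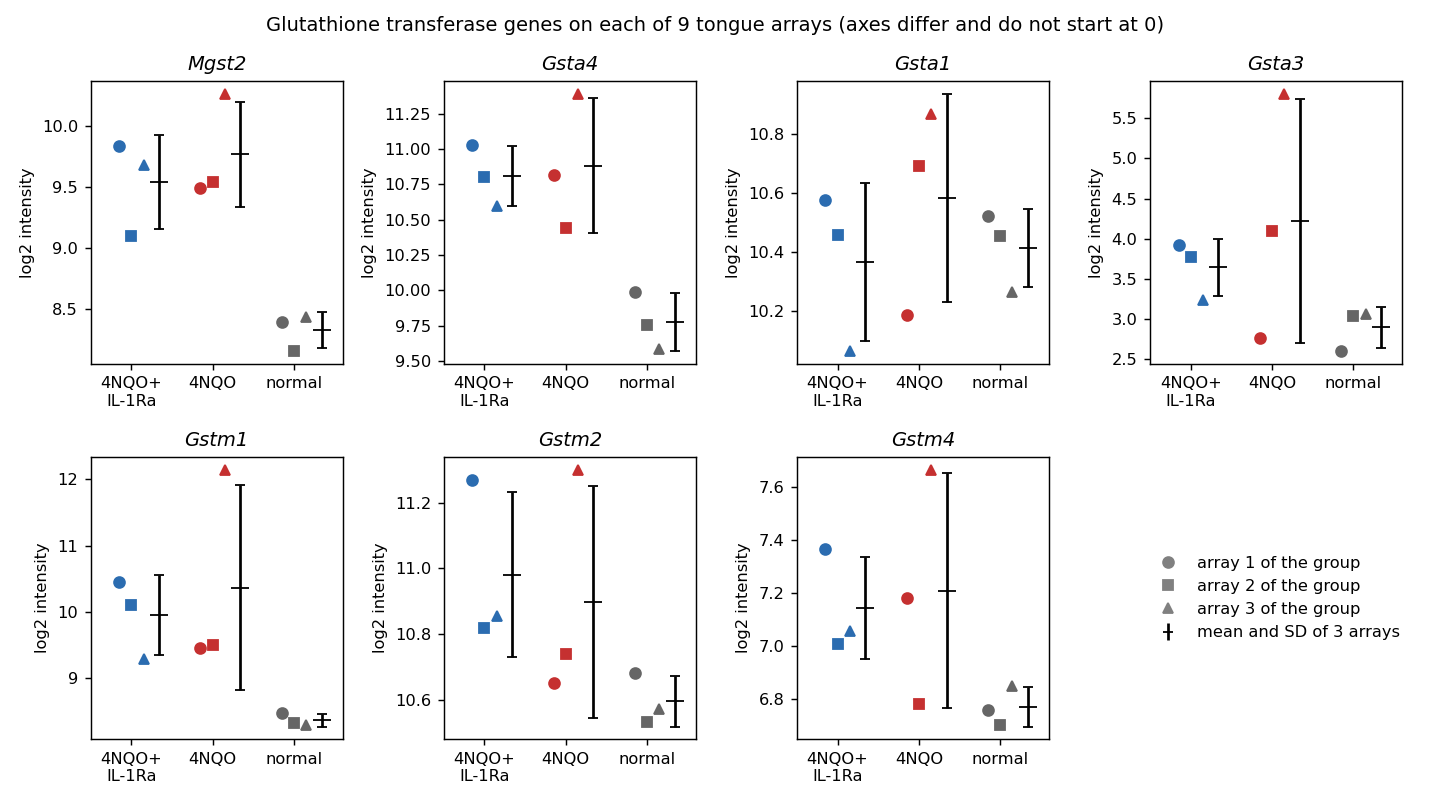
Log2 intensity of each of the 7 genes on each array, in panels with their own vertical axis. Groups run from 4NQO+IL-1Ra through 4NQO to normal, symbols mark the array within its group, and each horizontal tick with its whisker is the group mean with its SD (n = 3). The triangle of the 4NQO group, array 3, is the highest 4NQO point in all 7 panels.

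Mgst2 encodes a microsomal glutathione transferase that can also join glutathione to leukotriene A4 (probe set 1372599_at, chromosome 2). It read 9.84, 9.10 and 9.68 in 4NQO+IL-1Ra tongues, 9.50, 9.54 and 10.26 in 4NQO tongues, and 8.40, 8.16 and 8.44 in normal tongues. All 6 arrays of 4NQO-treated rats lay above all 3 normal arrays, and both treated groups overlapped each other. Means were 9.54 ± 0.39 with IL-1Ra, 9.77 ± 0.43 with 4NQO alone and 8.33 ± 0.15 in normal tongue. Mgst2 was higher by 1.44 (SE 0.24, adjusted p = 0.00793) in 4NQO than in normal tongue. It was higher by 1.21 (SE 0.24, adjusted p = 0.0440) in 4NQO+IL-1Ra than in normal tongue, a call lost after quantile normalization (adjusted p = 0.0632) and cyclic loess (adjusted p = 0.0670).

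Gsta4 encodes the alpha class enzyme that handles 4-hydroxynonenal, an aldehyde from oxidised lipid (1372297_at, chromosome 8). Its values were 11.03, 10.80 and 10.60 in 4NQO+IL-1Ra tongues, 10.82, 10.44 and 11.39 in 4NQO tongues, and 9.99, 9.76 and 9.58 in normal tongues. As for Mgst2, every treated array lay above every normal array. Means were 10.81 ± 0.21 with IL-1Ra, 10.88 ± 0.48 with 4NQO alone and 9.78 ± 0.20 in normal tongue. The difference was 1.11 (SE 0.22, adjusted p = 0.0143) for 4NQO over normal and 1.03 (SE 0.22, adjusted p = 0.0498) for 4NQO+IL-1Ra over normal. The second call was lost after quantile normalization (adjusted p = 0.0707), after cyclic loess (adjusted p = 0.0765) and with 1 probe set per gene (adjusted p = 0.0510).

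Gsta1 encodes a major alpha class enzyme of broad substrate range (1367774_at, chromosome 9). It had 10.58, 10.46 and 10.06 in 4NQO+IL-1Ra tongues, 10.19, 10.69 and 10.87 in 4NQO tongues, and 10.52, 10.45 and 10.26 in normal tongues. The 3 groups overlapped throughout. The difference was 0.17 (95% interval -0.26 to 0.59, adjusted p = 0.566) for 4NQO over normal and -0.05 (-0.47 to 0.38, adjusted p = 0.906) for 4NQO+IL-1Ra over normal.

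Gsta3, the alpha class enzyme that in humans also isomerises steroid precursors, was dim (1371089_at, chromosome 9). Its mean rank was at the 21.7th percentile of probe sets on an array, and it was the 1 member that failed the filter on dim probe sets. It read 3.92, 3.77 and 3.24 in 4NQO+IL-1Ra tongues, 2.76, 4.10 and 5.80 in 4NQO tongues, and 2.61, 3.03 and 3.06 in normal tongues. The 4NQO arrays spanned 3.04 and 1 of them lay among the normal arrays, while all 3 arrays with IL-1Ra lay above the normal ones. Neither difference from normal passed, at 1.32 (SE 0.58, adjusted p = 0.147) for 4NQO and 0.75 (SE 0.58, adjusted p = 0.475) for 4NQO+IL-1Ra. The fit shares 1 estimate of spread over the 3 groups, so the SE for 4NQO+IL-1Ra also holds the spread of the 4NQO arrays. The SD of Gsta3 was 0.36 in 4NQO+IL-1Ra, 1.52 in 4NQO and 0.26 in normal tongues.

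Among the mu class genes, Gstm1 encodes a widely expressed enzyme that conjugates epoxides and quinones (1386985_at, chromosome 2). It read 10.46, 10.11 and 9.28 in 4NQO+IL-1Ra tongues, 9.45, 9.50 and 12.15 in 4NQO tongues, and 8.47, 8.32 and 8.30 in normal tongues. All treated arrays were above all normal ones, and 1 array, 4NQO array 3, stood 2.67 above the mean of the other 4NQO arrays. The difference from normal was 2.0 for 4NQO (4.01-fold, SE 0.61, adjusted p = 0.0535) and 1.59 for 4NQO+IL-1Ra (3.0-fold, SE 0.61, adjusted p = 0.165). Without 4NQO array 3, the 4NQO difference was 1.11 and passed the test with an adjusted p of 0.0340. With all arrays the 4NQO difference passed after the filter on dim probe sets (adjusted p = 0.0477) and with array weights (1.61, adjusted p = 0.0345), and not under the other settings. The 4NQO+IL-1Ra difference passed with array weights (1.66, adjusted p = 0.0275) and with only the 6 arrays compared (adjusted p = 0.0186). In the main fit, the SE of this difference also holds the spread of the 4NQO arrays. The SD of Gstm1 was 0.60 in 4NQO+IL-1Ra, 1.54 in 4NQO and 0.095 in normal tongues.

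Gstm2 is a mu class gene whose human counterpart is abundant in muscle (1370952_at, chromosome 2). Its values were 11.27, 10.82 and 10.85 in 4NQO+IL-1Ra tongues, 10.65, 10.74 and 11.30 in 4NQO tongues, and 10.68, 10.53 and 10.57 in normal tongues. The IL-1Ra arrays all lay above normal by a narrow margin, and the 4NQO arrays overlapped normal. Differences were 0.30 (95% interval -0.11 to 0.71, adjusted p = 0.277) for 4NQO and 0.38 (-0.02 to 0.79, adjusted p = 0.243) for 4NQO+IL-1Ra over normal.

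Gstm4, a further mu class gene (1375909_at, chromosome 2), read 7.36, 7.01 and 7.06 in 4NQO+IL-1Ra tongues, 7.18, 6.78 and 7.66 in 4NQO tongues, and 6.76, 6.70 and 6.85 in normal tongues. Again the arrays with IL-1Ra cleared the normal range and those with 4NQO alone did not. Differences were 0.44 (95% interval -0.01 to 0.88, adjusted p = 0.156) for 4NQO and 0.37 (-0.07 to 0.81, adjusted p = 0.295) for 4NQO+IL-1Ra over normal.

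Over the list, 2 of 7 members were called higher and 0 lower in 4NQO against normal tongue, where 9.41% of all probe sets were called higher and 5.44% lower. The median difference of the members was 1.11 and that of all probe sets 0.01. Bright probe sets were called higher more often. Among the 18626 that passed the filter on dim probe sets, fitted on their own, 3174 were called higher and the median difference was 0.13. Of the 6 members that passed this filter, 3 were called higher. The 4NQO arrays lay wholly above the normal arrays for 3 members and wholly below for 0, against 20.6% and 17.6% of all probe sets. In 4NQO+IL-1Ra against normal tongue, 2 members were called higher and 0 lower, where 1.33% and 0.541% of all probe sets were. Among the 18626 that passed the filter on dim probe sets, 649 were called higher and the median difference was 0.08, with 2 of the 6 members called higher. Arrays with IL-1Ra lay wholly above normal for 6 members (all but Gsta1) and wholly below for 0, against 19.4% and 15.9%. Both comparisons use the same 3 normal arrays, so they are not independent of each other. The members were chosen with earlier results of these data known, so the counts describe the list and do not test it against all probe sets.

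**Figure D2:**
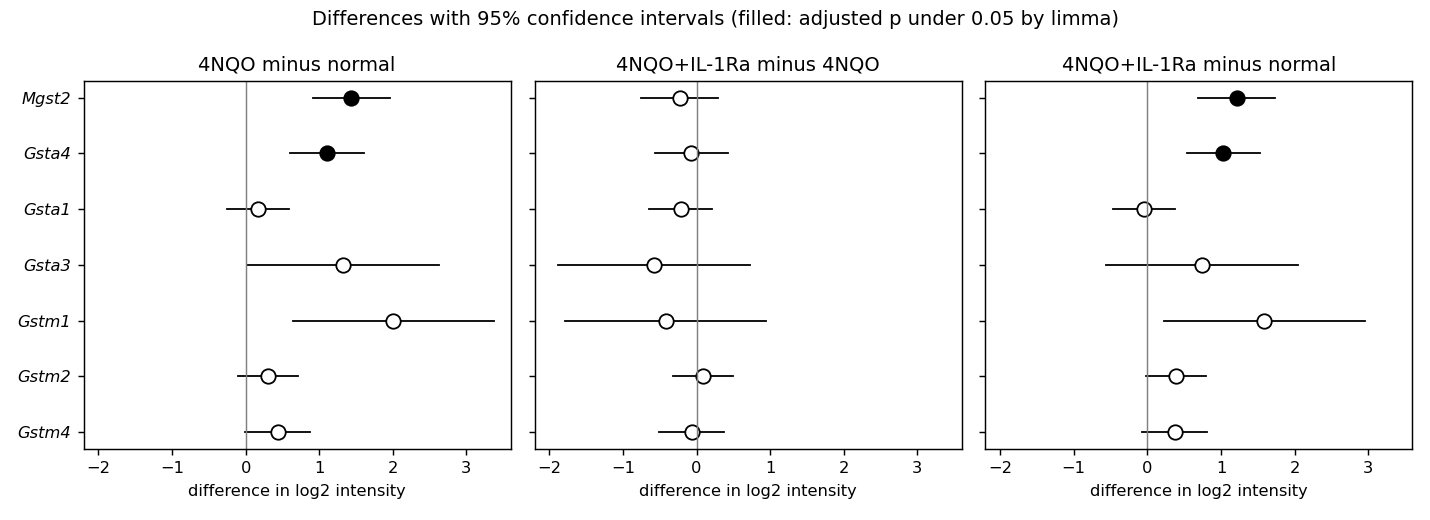
Difference in log2 intensity for each gene in 3 comparisons, with 95% confidence intervals from limma on 9 arrays. Filled points had an adjusted p under 0.05, and these were Mgst2 and Gsta4 in both comparisons with normal tongue. All 7 intervals for 4NQO+IL-1Ra minus 4NQO include 0, and the intervals of Gsta3 and Gstm1 are the widest.

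The calls against normal tongue differed in how often they were kept when 1 array was left out. Mgst2 in 4NQO tongue was called with any of the 9 arrays left out (difference 1.19 to 1.57, adjusted p 0.00919 to 0.0380). Gsta4 in 4NQO tongue lost its call only without normal array 3 (difference 1.01, adjusted p = 0.0667). Gstm1 in 4NQO tongue gained a call without 4NQO array 1 (2.46, adjusted p = 0.0395) or 4NQO array 2 (2.44, adjusted p = 0.0411), as it did without array 3. Gsta3 gained one without 4NQO array 1 (2.05, adjusted p = 0.0210), and Gstm4 without 4NQO array 2 (0.65, adjusted p = 0.0384). In 4NQO+IL-1Ra against normal tongue both calls lay near the threshold. They were lost when any 1 of the normal arrays, the 4NQO+IL-1Ra arrays or 4NQO array 1 was left out. These losses were not particular to the 2 genes. Calls over all probe sets fell from 581 to between 0 and 6 without a normal or a 4NQO+IL-1Ra array, and to 250 without 4NQO array 1. The 4NQO arrays are in neither group compared here and enter only through the shared estimate of spread. Over the 9 omissions the adjusted p ran from 0.0157 to 0.171 for Mgst2, with differences of 1.06 to 1.43, and from 0.0166 to 0.177 for Gsta4, with differences of 0.92 to 1.14. Without 4NQO array 3, Gstm1 was called in that comparison too (1.59, adjusted p = 0.0170).

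The comparison of 4NQO+IL-1Ra with 4NQO tongue addresses whether blocking interleukin-1 altered these genes in carcinogen-treated tongue. None of the 7 was called in either direction by limma, and 0 had an unadjusted p under 0.05, where 1.59% of all probe sets were called higher and 0.731% lower. In 0 members did the groups separate, against 8.92% of probe sets with all arrays above and 11.7% with all below. The fitted differences ran from -0.58 for Gsta3 (95% interval -1.88 to 0.73) to 0.08 for Gstm2 (-0.32 to 0.49). Between them stood Gstm1 at -0.42 (-1.78 to 0.95), Mgst2 at -0.23 (-0.75 to 0.30), Gsta1 at -0.22 (-0.64 to 0.21), Gsta4 at -0.07 (-0.57 to 0.42) and Gstm4 at -0.07 (-0.51 to 0.38). The estimate was below 0 for 6 of 7 genes. Without 4NQO array 3, 5 of these 6 turned above 0, among them Gstm1 at 0.47 and Gsta3 at 0.22, and Gsta1 stayed below at -0.07. For Gsta4 and Mgst2, the 2 genes called against normal tongue, the intervals span about 1 log2 unit. The data thus do not show that these levels were alike in both groups.

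**Figure D3:**
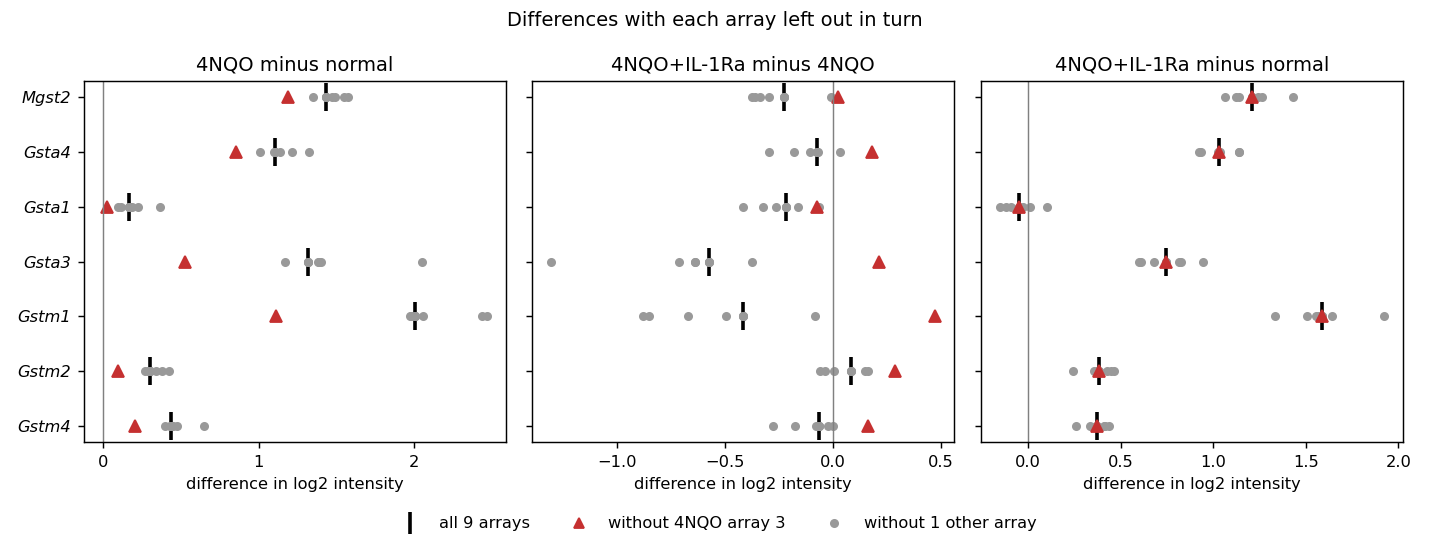
Difference in log2 intensity for each gene with all 9 arrays (bar), without 4NQO array 3 (triangle) and without each other array (dots). In the 4NQO+IL-1Ra minus 4NQO panel the triangles lie above 0 for 6 genes, while the bars lie below 0 for 6 genes.

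All 7 members read highest, within the 4NQO group, on array 3, which is the highest 4NQO array for 34.4% of all probe sets. Its excess over the mean of 4NQO arrays 1 and 2 was 2.67 for Gstm1 and 2.37 for Gsta3, and 0.43 to 0.76 for the other 5. The 9 measured genes of glutathione supply averaged 8.16 on the same array, against 7.11 and 7.07 on 4NQO arrays 1 and 2. Array 3 was the highest 4NQO array for 6 of these 9 genes. It was so for 6 of 13 other cytosolic and kappa GST genes, 2 of 5 other MAPEG genes and 6 of 16 genes of conjugate export and mercapturate formation. For glutathione peroxidases with Prdx6 the count was 2 of 8, and for NRF2 regulators with Nqo1 4 of 8. Basal keratinocyte markers (8 of 8 measured) averaged 10.85 on 4NQO array 3, against 10.00 and 10.03 on 4NQO arrays 1 and 2. These markers averaged 9.96 to 10.05 in 4NQO+IL-1Ra tongues and 9.03 to 9.43 in normal tongues. Differentiated keratinocyte markers (8 of 10 measured) averaged 10.56 on 4NQO array 3, against 9.24 and 8.50 on 4NQO arrays 1 and 2. The array was the lowest of its group for erythroid markers (2 of 4 measured), at 7.91 against 11.06 and 9.76, and for Schwann cell markers (2 of 4 measured), at 7.16 against 8.79 and 8.34. By smaller margins it was also lowest for skeletal muscle (11.15 against 11.27 and 11.29) and endothelial markers (7.79 against 8.06 and 8.21). The same held for adipocyte and for dim salivary gland markers. The array was highest for T cell markers and between the others for fibroblast and macrophage markers. Its difference of 3′ and 5′ probe sets, a sign of RNA integrity, was the highest of its group for GAPDH, at 0.43 against 0.31 and 0.31, for hexokinase, at 1.78 against 1.42 and 1.29, and for beta-actin, at 1.29 against 1.24 and 1.07. The part of these cell types and of RNA integrity in the high values of array 3 was not tested.

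Whole tongue is a mixture, and in bulk RNA more cells of a type cannot be told apart from more RNA per cell. Skeletal muscle markers (10 of 10 measured) were bright in every group, at list means of 10.67 to 10.97 in 4NQO+IL-1Ra, 11.15 to 11.29 in 4NQO and 11.12 to 11.30 in normal tongues, and keratinocyte markers were present. The tissue label was thus borne out, although the design text of the series also speaks of epithelia and fibroblasts. Of the basal keratinocyte markers, 5 of 8 were called higher and 0 lower in 4NQO against normal tongue, where 9.41% of all probe sets were called higher. In 4NQO+IL-1Ra against normal tongue 0 of 8 were called in either direction, where 1.33% of all probe sets were called higher and 0.541% lower. All 8 fitted differences were above 0, at 0.13 to 1.30 with a median of 0.77. Of the fibroblast markers 6 of 7 were lower and of the endothelial markers 4 of 5 higher in 4NQO against normal tongue. The shares of all probe sets were 5.44% lower and 9.41% higher. Differentiated keratinocyte markers had 3 of 8 lower in 4NQO against normal tongue and 2 of 8 higher in 4NQO+IL-1Ra against 4NQO tongue. In the latter comparison 2 of 10 skeletal muscle markers were called lower, Tnnt1 (-1.82) and Ttn (-0.72). There 1.59% of all probe sets were called higher and 0.731% lower. The part of these cell types in the GST values was not tested. For beta-actin, the 3′ probe set exceeded the 5′ one by 0.98 to 1.27 in 4NQO+IL-1Ra, 1.07 to 1.29 in 4NQO and 0.74 to 0.86 in normal tongues, higher on every array of a 4NQO-treated rat. The other controls followed it only in part. For GAPDH the excess was 0.26 to 0.28 in 4NQO+IL-1Ra, 0.31 to 0.43 in 4NQO and 0.23 to 0.30 in normal tongues. Every 4NQO array thus lay above the normal ones, and the arrays with IL-1Ra lay within the normal range. For hexokinase the excess was 1.80 to 2.20 in 4NQO+IL-1Ra, 1.29 to 1.78 in 4NQO and 1.47 to 1.53 in normal tongues. Here every array with IL-1Ra lay above the normal ones, and 4NQO arrays lay on both sides of them. The part of RNA integrity in the group differences was not tested.

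Genes with related work showed where the members stood among their pathway in 4NQO against normal tongue. Of all probe sets, 9.41% were called higher and 5.44% lower in this comparison, and the counts of each list stand beside these shares. Of 13 measured other cytosolic and kappa GST genes, 1 was called higher (Gstm5, 0.61, adjusted p = 0.0399) and 1 lower (Gstm3, dim, -0.63, adjusted p = 0.0445). Their median difference was 0.33. Gstp1, the pi class enzyme long used as a marker of rat liver preneoplasia, read 10.46, 10.53 and 9.64 in 4NQO+IL-1Ra tongues, 10.23, 10.02 and 11.66 in 4NQO tongues, and 9.78, 9.63 and 9.80 in normal tongues, and was not called (0.90, adjusted p = 0.135). It had its highest value on 4NQO array 3, as the members did.

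Of the 5 other MAPEG genes, only Mgst1, the liver-type microsomal transferase, was called higher in 4NQO tongue (0.92, adjusted p = 0.0247). Its values were 10.62, 9.89 and 10.71 in 4NQO+IL-1Ra tongues, 10.57, 10.57 and 10.90 in 4NQO tongues, and 9.81, 10.00 and 9.49 in normal tongues. The 4NQO arrays did not overlap the normal arrays, and 1 array with IL-1Ra did.

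Among 9 measured genes of glutathione supply, Gss, the glutathione synthetase, was called higher in 4NQO tongue (1.27, adjusted p = 0.0216), as was Oplah, which recycles 5-oxoproline (0.62, adjusted p = 0.0221). Chac2, which degrades glutathione, was called lower (-0.56, adjusted p = 0.0324). The subunits of the rate-limiting enzyme differed by 1.25 for Gclc (adjusted p = 0.0833) and 1.43 for Gclm (adjusted p = 0.0665), with wide spread, and neither passed. Gclc read 7.78, 7.70 and 7.37 in 4NQO+IL-1Ra tongues, 7.16, 7.30 and 9.24 in 4NQO tongues, and 6.80, 6.497 and 6.66 in normal tongues. As for Gstm1, every treated array was above normal and 4NQO array 3 stood far above the rest.

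For conjugate export and mercapturate formation, 3 of 16 measured genes were called higher in 4NQO tongue and 0 lower, against 9.41% and 5.44% of all probe sets. These were the transporters Abcc1 (0.47, adjusted p = 0.0200) and Abcc3 (1.04, adjusted p = 0.0263) and the aminoacylase Acy1 (0.49, adjusted p = 0.0194). Of 8 glutathione peroxidase genes and Prdx6, 0 were higher and 1 lower, Gpx8 of the endoplasmic reticulum (-0.65, adjusted p = 0.0237). Of 8 NRF2 regulators with the NRF2 target Nqo1, 3 were higher and 0 lower, namely Nfe2l2 itself (0.62, adjusted p = 0.0156) and the small Maf genes Mafg (0.66, adjusted p = 0.0229) and Mafk (0.40, adjusted p = 0.0427). Nqo1, a quinone reductase, was not called in 4NQO against normal tongue (0.16, adjusted p = 0.775).

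Over the same 6 lists, Ggct, which releases 5-oxoproline in glutathione breakdown, was the only gene called in 4NQO+IL-1Ra against 4NQO tongue (0.67, adjusted p = 0.00959). It was also the only one called against normal tongue in the 4NQO+IL-1Ra group (0.70, adjusted p = 0.0344), and in 4NQO tongue it differed from normal by 0.04 (adjusted p = 0.812). Of all probe sets, 1.59% were called higher and 0.731% lower in 4NQO+IL-1Ra against 4NQO tongue. In 4NQO+IL-1Ra against normal tongue these shares were 1.33% and 0.541%.

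**Figure D4:**
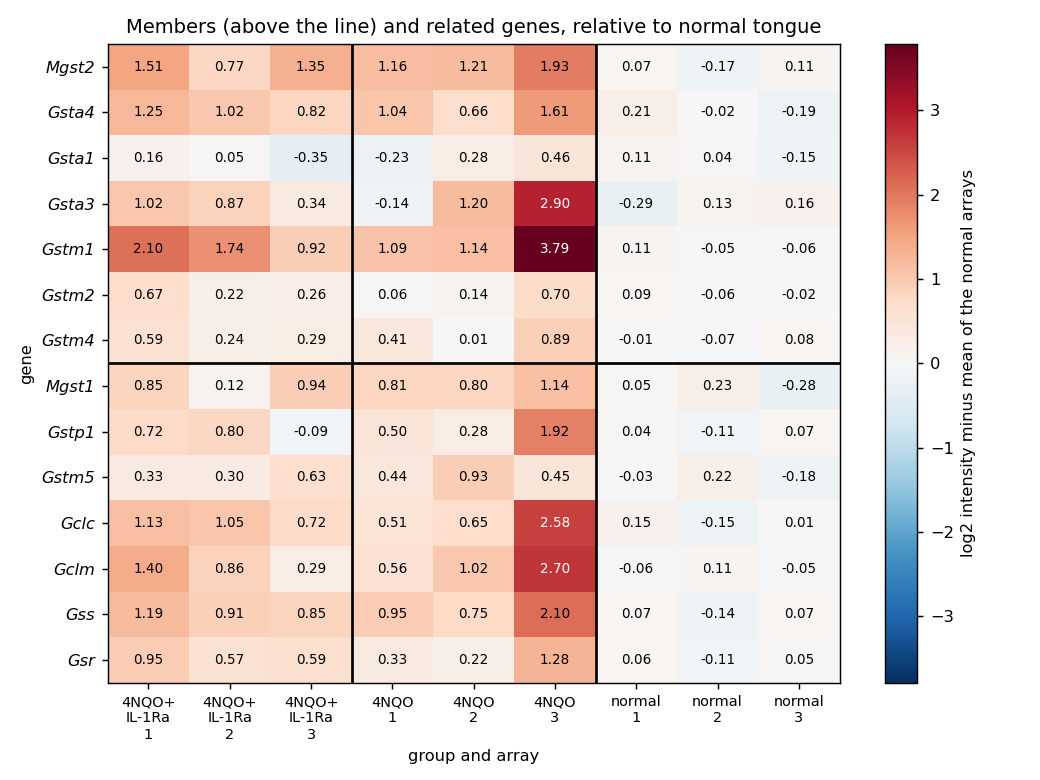
Log2 intensity of the 7 members (above the line) and of 7 related genes on each of 9 arrays, minus the mean of the 3 normal arrays for that gene. The 7 related genes are a selection from the pathway lists, and in 4NQO tongue the mean of each was above normal. Of the same lists, Gstm3 (-0.63) and Chac2 (-0.56), called lower in 4NQO against normal tongue, are not shown. Red is above and blue below normal tongue. The column of 4NQO array 3 holds the deepest reds, at 3.79 for Gstm1 and 2.90 for Gsta3, while Gsta1 stays within 0.46 of normal on every array.

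The members varied together to different degrees. Over the 9 arrays, which share group differences and 4NQO array 3, Pearson's r was 0.69 to 0.92 for the 15 pairs without Gsta1 and 0.29 to 0.75 for the 6 pairs with it, as a description across arrays with no test. The highest was that of Gsta4 with Gstm1 (0.92) and the lowest that of Gsta1 with Mgst2 (0.29). Among 14216 other genes, the 3 most alike to Gstm1 over the 9 arrays were Mad1l1, a spindle checkpoint gene (r = 0.994), Gclc (0.986) and Tkt, the transketolase of the pentose phosphate path (0.983). For Gsta4 they were Smyd2 (0.990), Stard10 (0.989) and Cct3 (0.988), and for Mgst2 they were Ddx18 (0.988), Taf10 (0.983) and Srrm1 (0.983). Gstm2 was most like Haspin (0.968), Bri3bp (0.959) and Gsr, the glutathione reductase (0.957). Gstm4 came closest to Rad54l (0.961), Acot8 (0.959) and Elp6 (0.948), Gsta3 to Shq1 (0.979), Pgrmc1 (0.962) and P2ry1 (0.960), and Gsta1 to Pcdhb17 (0.967), Epo (0.947) and Kansl1 (0.938). These are the highest of many values of r over few arrays, and they describe likeness of pattern only.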

How the data were processed

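RNA of 9 rat tongues was hybridised to Affymetrix Rat Genome arrays. The authors made the deposited intensity values with Affymetrix Expression Console and RMA (versions not given in the sources used here), which corrects background, normalizes between arrays and sums probes. The values are on the linear scale, so log2 was taken. Array medians were 5.23 to 5.27 over the groups, but the quartiles still differed by group. The upper quartile was 7.16 to 7.26 in 4NQO+IL-1Ra, 7.21 to 7.28 in 4NQO and 7.04 to 7.08 in normal arrays. The lower quartile was 3.60 to 3.70, 3.61 to 3.66 and 3.73 to 3.78 in the same order. The main fit kept these differences, and results after quantile normalization and cyclic loess are given below. The files have no background calls, and the number of arrays limits the precision. Probe sets were named from the platform annotation: 20826 had 1 gene symbol, 436 several and 9780 none, and 57 control probe sets were left out. Probe sequences were not used here, so cross-hybridisation among close GST paralogs was not tested. Groups came from the labels, and no source pairs samples across groups.

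Group means were fitted on 9 arrays with limma 3.58.1 in R 4.3.3 (lmFit, eBayes, two-sided), adjusted by Benjamini-Hochberg over 31042 probe sets. Each probe set had 1 estimate of spread, shared by the 3 groups. The fit was tested on simulated data. All members are named, called genes of the pathway lists are named, and per member the 3 genes of highest r; Gstp1, Gclc, Gclm and Nqo1, which were not called, were named after their values were seen. A gene with several probe sets was represented by the brightest. Members and lists were chosen with earlier results of these data known. Alternatives were other normalizations, a filter on dim probe sets (the dimmest 40% left out), a robust intensity trend, array weights, 1 probe set per gene, only the 6 arrays compared, the methods' t-test, and each array left out. The methods' t-test was Student's t-test, which the study's methods name for data in general. For the arrays the methods give a fold and a detection P value. Alignments used Biopython 1.88.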

Additional observations from a re-analysis of the deposited data

How the results depend on the processing

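No paired analysis was possible because no source links samples of different groups: the numbers in the sample titles name samples, and the groups compared share fewer than 2 of them. Of the alternatives, 9 changed a setting and 9 left out an array. In 4NQO against normal tongue the count of members called stayed at 2 under the 9 settings, or at 3 with the filter on dim probe sets and with array weights (Gstm1 added in both), and ran from 1 to 4 with an array left out. In 4NQO+IL-1Ra against 4NQO tongue it was 0 throughout. In 4NQO+IL-1Ra against normal tongue, where 2 were called, the count was 0 after quantile normalization and 0 after cyclic loess, 1 with 1 probe set per gene (Gsta4 lost), 3 with array weights and 3 with only the 6 arrays compared (Gstm1 added in both), 4 by the methods' t-test at an unadjusted threshold with a fold of 1.5, and 0 to 3 with an array left out; the cause was not tested. After Benjamini-Hochberg the methods' t-test called neither of these in either comparison with normal tongue (adjusted p 0.0804 to 0.133).

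The sign of uncalled differences between 4NQO+IL-1Ra and 4NQO tongue turned for Gstm4 after cyclic loess (0.011) and for Gsta3 (0.019) and Gstm1 (0.043) with array weights. With an array left out these differences ran from -1.30 to 0.22 for Gsta3, -0.29 to 0.18 for Gsta4, -0.88 to 0.47 for Gstm1, -0.060 to 0.29 for Gstm2, -0.28 to 0.16 for Gstm4 and -0.37 to 0.022 for Mgst2, and the difference of Gsta1 between 4NQO+IL-1Ra and normal tongue from -0.15 to 0.10. Over all probe sets, 2922 of 4610 calls in 4NQO against normal tongue were higher, against 1463 of 2821 after quantile normalization and 1182 of 2480 after cyclic loess; in 4NQO+IL-1Ra against normal tongue, 413 of 581 were, against 94 of 203 and 34 of 97, and in 4NQO+IL-1Ra against 4NQO tongue 495 of 722, against 585 of 732 after cyclic loess. Calls over all probe sets in 4NQO+IL-1Ra against normal tongue also came to 3556 with array weights, 2714 with only the 6 arrays compared, 1391 by the methods' t-test and 0 to 2084 with an array left out. In 4NQO+IL-1Ra against 4NQO tongue they were 195 with the 6 arrays and 184 to 2353 with an array left out, and in 4NQO against normal tongue 2249 by the methods' t-test and 851 to 4417 with an array left out.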

Other observations

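The spread of Gstm1 and Gsta3 within the 4NQO group was among the widest on the array. The SD over the 3 4NQO arrays was 1.54 for Gstm1 and 1.52 for Gsta3, above that of 99.9% of all probe sets for both, while the median SD of all probe sets in this group was 0.19. In 4NQO+IL-1Ra tongues the SD of Gstm1 was 0.60, and in normal tongues it was 0.095. Nqo1 read 11.34, 11.51 and 11.19 in 4NQO+IL-1Ra tongues, 10.34, 10.16 and 11.64 in 4NQO tongues and 10.78, 10.13 and 10.75 in normal tongues. The arrays with IL-1Ra were all above normal, without passing the test (0.79, adjusted p = 0.204).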
